A study of Mus musculus with 12 samples.

Results

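The methionine cycle and its supply of S-adenosylmethionine (SAM) are described here through 7 genes: Mat2a, Mat2b, Ahcy, Mtr, Mtrr, Bhmt and Mtap. They were taken by gene symbol from the 55487 genes of the deposited count table, and all 7 passed the filter on low counts. Polyadenylated RNA was sequenced from mouse embryonic stem cells of the line E14 Tg2a (Bay Genomics), from 3 Pcbp1 knockout clones (KO) and 3 control clones (WT in the sample labels, Scr in the series text). Pcbp1 encodes an RNA-binding protein, and the series asks about its part in the exit from the naive towards the primed state and in the metabolism of amino acids. Each clone was grown in 2 conditions, which gave 4 groups of 3 libraries (WT and KO in naive cells, WT and KO in EpiLCs). Naive cells were kept without serum in N2B27 medium with LIF, the MEK inhibitor PD0325901 (1 uM) and the GSK3 inhibitor CHIR99021 (3 uM) on poly-L-ornithine. Epiblast-like cells (EpiLCs), a culture model of the early postimplantation epiblast, came from 48 h in N2B27 with bFGF (12 ng/ml), activin A (20 ng/ml) and KOSR serum replacement (1%) on fibronectin. All groups share the 1 parental line, so the clones are replicates of an edit within a single genetic background.

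In the methionine cycle, methionine adenosyltransferase joins methionine to ATP to make SAM, the methyl donor for DNA, histone, RNA and small-molecule methylation. Each methyl transfer leaves S-adenosylhomocysteine, which is split to homocysteine, and homocysteine is methylated back to methionine with a methyl group from folate or from betaine. A separate salvage route recovers methionine from the 5′-methylthioadenosine that polyamine synthesis releases, and mouse embryonic stem cells are known for a high demand for SAM, which threonine breakdown helps to meet through glycine and folate.

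Library totals ran from 27146744 to 42204511 counts. Values are given as CPM, the library-scaled counts of edgeR after TMM normalisation, and a gene was called when its adjusted p from edgeR's quasi-likelihood test over 18134 genes was under 0.05. Pcbp1 was lower in KO in both conditions, at 456 ± 32.8 CPM (SD, n = 3) in naive WT against 300.2 ± 4.25 in naive KO, and at 599 ± 90.3 in EpiLC WT against 272 ± 26.5 in EpiLC KO; both differences were called, and its RNA remained well above 0 in KO. All 6 pluripotency markers were over 1 CPM in every library. The summed level of the 6 naive markers fell from between 3327 and 3616 CPM in naive libraries to between 131 and 589 CPM in EpiLC libraries, and that of the 5 EpiLC markers went from between 84.6 and 154 CPM to between 2030 and 3609 CPM. The summed level of 12 endoderm markers was 241 to 284 CPM in WT and 328 to 585 CPM in KO of naive cells, and 11.9 to 23.7 CPM in WT and 60.3 to 91.3 CPM in KO of EpiLCs, with Ttr at 0 in every EpiLC WT library. The 8 fibroblast markers summed to 4.57 to 5.77, 8.86 to 10.6, 11.3 to 18.4 and 24.0 to 40.0 CPM in the same order of groups, with Dcn at 0 in every naive KO library. Both sums were higher in every KO library than in any WT library of the same condition. In naive cells Lama1 carried most of the endoderm sum, at 261 ± 29.3 CPM in WT and 431 ± 135 in KO. The highest fibroblast gene there was Col1a1, at 1.99 ± 0.474 CPM in WT and 5.95 ± 2.43 in KO. Pdgfra came next, at 1.93 ± 0.275 and 2.93 ± 0.984 CPM. Of the endoderm regulators, Gata4 went from 0.722 ± 0.365 CPM in naive WT to 0.313 ± 0.0398 in naive KO and Sox17 from 0.188 ± 0.0263 to 0.0698 ± 0.0363, and the medians of the tested markers in naive KO against WT were -0.04 (endoderm) and -1.03 (fibroblast). The part of such cells in the results below was not tested.

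The change from naive cells to EpiLCs moved 5 of the 7 genes, and in the same directions in WT and in KO. Mat2a and Mtap rose, Mtr, Mtrr and Bhmt fell, and Mat2b and Ahcy did not pass the test. Over all genes tested, 52.7% were called between the conditions in WT (26.4% higher and 26.3% lower). In KO 55.2% were called (27.1% higher and 28.1% lower), so 5 of 7 is not far from that background. The counts of other lists at this transition, given below, stand beside the same shares. The median log2 fold change of the 7 was -0.10 in WT and 0.08 in KO, beside -0.01 and -0.04 over all genes. DESeq2 also called 5 members in each. In bulk RNA, fewer cells that express a gene and less of its RNA per cell cannot be told apart.

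**Figure D1:**
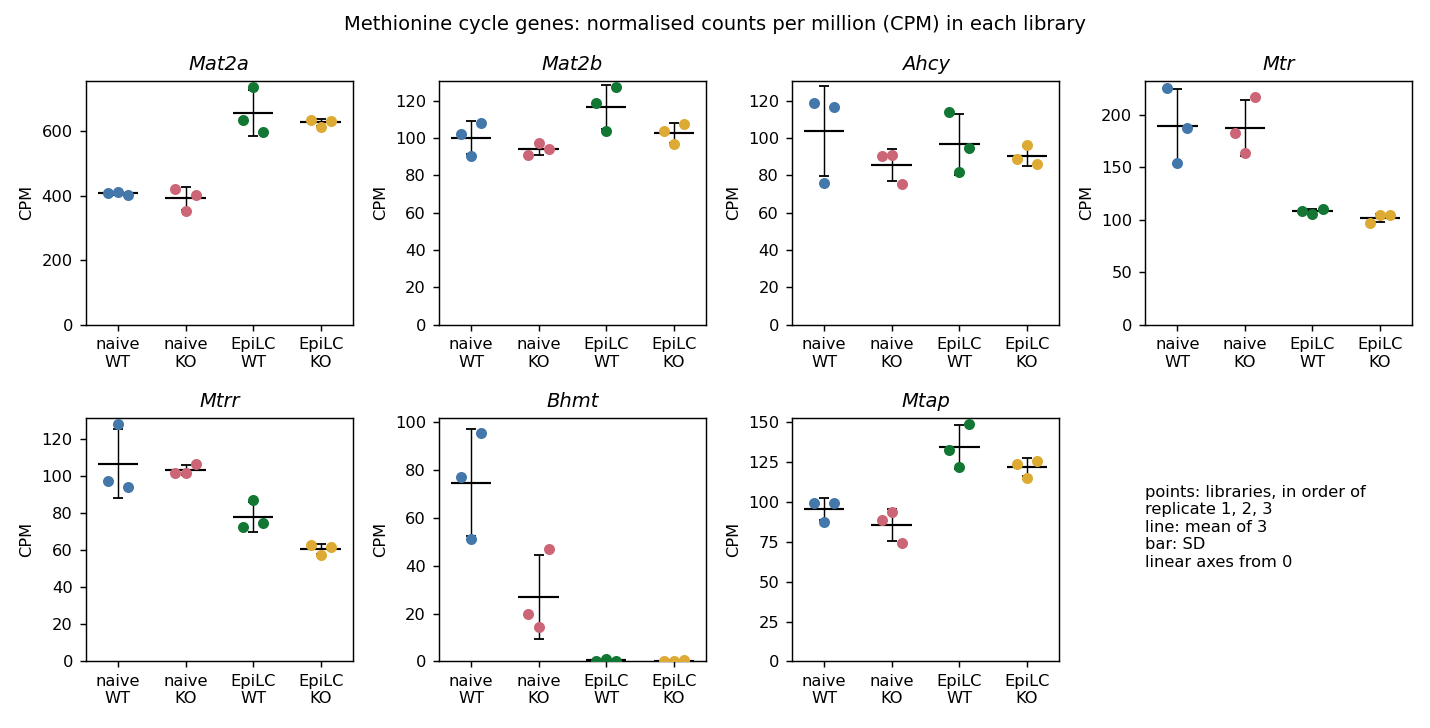
Normalised counts (CPM, linear axes from 0) of the 7 genes in the 12 libraries, with points for replicates 1 to 3 from left to right in each group, the mean as a line and the SD as a bar. Mat2a and Mtap are higher in all 6 EpiLC libraries than in any naive library, and Mtr, Mtrr and Bhmt are lower in all of them.

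Mat2a encodes the catalytic subunit of the methionine adenosyltransferase found outside adult liver. Its RNA carries a sequence element in the 3′ UTR that the methyltransferase METTL16 is known to bind and methylate, and through which SAM levels feed back on splicing and stability of the Mat2a message. The element TACAGAGAA (written as DNA) was found 5 times on the sense strand of Mat2a-201 in GENCODE vM21 (GRCm38, chromosome 6, minus strand), all in exon 9 of 9 and within the 3′ UTR. The 5 copies are shown because this repeat sets Mat2a apart in sequence from the other genes of the cycle. Each is printed with 10 flanking bases on either side, in transcript direction and with the element in capitals:
Mat2a site 1, chr6:72434235-72434263: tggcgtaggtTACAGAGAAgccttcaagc
Mat2a site 2, chr6:72433451-72433479: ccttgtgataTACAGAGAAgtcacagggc
Mat2a site 3, chr6:72433272-72433300: ctggtgtagcTACAGAGAAaccagcttcc
Mat2a site 4, chr6:72433157-72433185: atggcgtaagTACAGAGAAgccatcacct
Mat2a site 5, chr6:72432938-72432966: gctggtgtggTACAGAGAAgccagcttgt

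At least 1 copy of the element lay in a transcript of 993 of the 21877 genes with a protein-coding transcript, and Mat2a was the 1 gene with as many as 5 copies. None of the other 6 members held a copy. These are matches of letters and not measured sites of methylation, and gene-level counts do not separate the spliced Mat2a message from forms that keep an intron.

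Mat2a (ENSMUSG00000053907.10, GRCm38 chromosome 6, 72432799 to 72439558, minus strand) was measured at 409, 411 and 401 CPM in naive WT and at 421, 354 and 401 CPM in naive KO. In EpiLCs it stood at 635, 737 and 598 CPM in WT and at 636, 615 and 633 CPM in KO. Every EpiLC library was above every naive library, while KO and WT overlapped in both conditions. The log2 fold change from naive to EpiLC was 0.69 ± 0.0921 (SE) in WT (edgeR adjusted p = 4.99e-05) and 0.68 ± 0.0921 in KO (edgeR adjusted p = 4.84e-05), 1.61 and 1.6 times by the ratio of means. KO against WT differed by -0.06 in naive cells (95% interval -0.25 to 0.14) and by -0.06 in EpiLCs (-0.26 to 0.13). A change of Mat2a RNA by KO larger than these bounds was therefore not seen in either condition. The exons of Mat2a overlap those of the antisense RNA Particl over 508 bp, but Particl itself held 227 counts over all 12 libraries.

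Mettl16, which encodes the methyltransferase that acts on the Mat2a element, rose by 0.73 ± 0.0829 in both WT (edgeR adjusted p = 1.37e-05) and KO (edgeR adjusted p = 1.15e-05), from 83.8 ± 6.08 to 139 ± 3.36 CPM in WT. Of the 6 listed genes of SAM sensing and Mat2a RNA control, 2 rose in WT (Mettl16 and Ythdf2, at 0.22 ± 0.0847) and 3 in KO, where Cpsf6 was the third at 0.45 ± 0.139. Ythdc1, whose product reads the methyl mark in the nucleus, did not pass the test, at -0.19 ± 0.111 in WT and 0.08 ± 0.111 in KO. Bmt2, which encodes the SAM sensor SAMTOR upstream of mTORC1, was the 1 gene of this list that was called between genotypes: it was higher in KO EpiLCs, at 18.7 ± 3.64 CPM against 10.4 ± 3.04 CPM in WT EpiLCs (log2 0.85 ± 0.241, edgeR adjusted p = 0.0334). This call ended in 4 of the 6 fits that left out a single EpiLC library.

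Mat2b encodes the regulatory subunit that binds MAT2A (ENSMUSG00000042032.13, chromosome 11, 40679314 to 40695203, minus strand). Its values were 102, 90.3 and 108 CPM in naive WT, 91.0, 97.3 and 94.2 CPM in naive KO, 119, 104 and 127 CPM in EpiLC WT, and 104, 96.5 and 107 CPM in EpiLC KO. The ranges of naive cells and EpiLCs overlapped in both genotypes, and the log2 difference was 0.22 ± 0.1 in WT (edgeR adjusted p = 0.0832) and 0.12 ± 0.1 in KO (edgeR adjusted p = 0.325). With libraries of the same genotype and replicate number paired, the WT difference of 0.22 passed the test (edgeR adjusted p = 0.0321). KO against WT was -0.09 in naive cells (-0.31 to 0.13) and -0.19 in EpiLCs (-0.40 to 0.03).

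Per kb of summed exon length, Mat2a stood highest of the 7 genes in every group, at a mean of 90.8 CPM per kb in naive WT, 87.3 in naive KO, 146 in EpiLC WT and 137 to 142 over the EpiLC KO libraries. The ratio of Mat2a to Mat2b on that scale was 4.56 ± 0.474 (SD, n = 3) in naive WT and 4.65 ± 0.558 in naive KO. It was 6.37 ± 1.39 in EpiLC WT and 6.84 ± 0.259 in EpiLC KO, and each EpiLC library had a higher ratio than any naive library. Below Mat2a, the naive order was Ahcy, Mtap, Mtr, Mtrr, Mat2b and Bhmt in both genotypes. In naive WT the ranges of Ahcy and Mtap overlapped, as did those of Mtr, Mtrr and Mat2b as neighbours. In naive KO the ranges overlapped between Ahcy and Mtap, Mtap and Mtr, and Mtr and Mtrr. In EpiLCs Mtap took the place of Ahcy as the next after Mat2a in both genotypes, with overlapping ranges in WT and separate ones in KO, and Mat2b stood above Mtr and Mtrr. The neighbouring Mtr and Mtrr overlapped in EpiLC KO and were apart in EpiLC WT. The summed length counts exons of all annotated forms, retained introns included, so levels per kb are approximate.

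**Figure D2:**
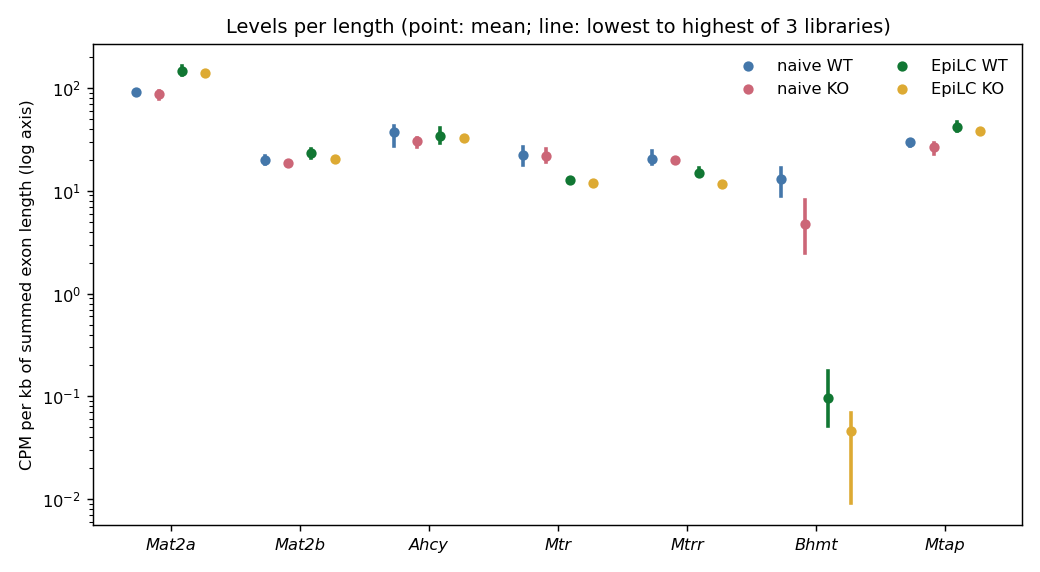
Level of each gene in CPM per kb of summed exon length (log axis) by group, with the mean as a point and a line from the lowest to the highest of 3 libraries. Mat2a is highest in all 4 groups, and Bhmt drops to a mean of 0.0967 in EpiLC WT and from 4.71 in naive KO to 0.0458 in EpiLC KO.

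Ahcy encodes the hydrolase that removes S-adenosylhomocysteine, the product that inhibits methyltransferases (ENSMUSG00000027597.15, chromosome 2, 155059310 to 155074497, minus strand). It was measured at 119, 76.0 and 116 CPM in naive WT, 90.4, 90.9 and 75.5 CPM in naive KO, 114, 81.6 and 94.5 CPM in EpiLC WT, and 88.6, 96.4 and 86.4 CPM in EpiLC KO. Replicate 2 was the lowest WT library in both conditions, and all groups compared overlapped. No contrast passed the test: KO against WT was -0.28 in naive cells (-0.64 to 0.08) and -0.09 in EpiLCs (-0.46 to 0.27), and EpiLC against naive was -0.10 in WT (-0.47 to 0.26) and 0.08 in KO (-0.28 to 0.44). A near-identical copy on chromosome 16, Gm4737, shares 99.7% of bases over 2083 of the 2543 bases of the Ahcy transcript and held 50.3 to 74.8 CPM, so the counts of both genes are uncertain. With both genes summed, a choice made after seeing the data, Ahcy was again not called in any contrast (KO against WT in naive cells -0.25, adjusted p = 0.369).

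The related Ahcyl1 and Ahcyl2 encode proteins that resemble AHCY without its established hydrolase role. Ahcyl1 rose in WT at the transition (0.48 ± 0.154, edgeR adjusted p = 0.0198), and its difference in KO was 0.26 ± 0.154 (edgeR adjusted p = 0.166). Ahcyl2 was called in no contrast. Adk, whose product clears the adenosine that the AHCY reaction releases, rose from 20.8 ± 2.61 to 116 ± 20.2 CPM in WT and from 25.7 ± 2.18 to 140 ± 20.4 CPM in KO. The log2 fold changes were 2.48 ± 0.158 and 2.45 ± 0.157. Of the 6 other enzymes of the cycle, 4 rose and 1 (Bhmt2) fell in WT, and 3 rose and 1 fell in KO.

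Mtr encodes methionine synthase, which remethylates homocysteine with the methyl group of 5-methyltetrahydrofolate and uses cobalamin (ENSMUSG00000021311.9, chromosome 13, 12182712 to 12258113, minus strand). It was measured at 226, 154 and 188 CPM in naive WT and at 183, 164 and 217 CPM in naive KO. In EpiLCs it stood at 108, 106 and 109.9 CPM in WT and at 97.4, 104 and 104 CPM in KO. The naive libraries were all above the EpiLC libraries, and the spread between clones was wider in naive cells. The log2 fold change was -0.81 ± 0.133 in WT (edgeR adjusted p = 0.000261) and -0.88 ± 0.133 in KO (edgeR adjusted p = 0.000121). KO against WT was -0.01 in naive cells (-0.30 to 0.28). In EpiLCs every KO library lay just below every WT library, and the difference was -0.08 (-0.37 to 0.20, edgeR adjusted p = 0.724).

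Mtrr encodes the reductase that returns the cobalamin of methionine synthase to its active form (ENSMUSG00000034617.7, chromosome 13, 68560780 to 68582149, minus strand). It was measured at 97.4, 128 and 94.1 CPM in naive WT and 102, 102 and 106 CPM in naive KO, and then at 72.4, 87.1 and 74.4 CPM in EpiLC WT and 62.5, 57.5 and 61.5 CPM in EpiLC KO. All EpiLC libraries were below all naive libraries, and the EpiLC KO libraries were below the EpiLC WT libraries. The fall was -0.45 ± 0.12 in WT (edgeR adjusted p = 0.00706) and -0.77 ± 0.121 in KO (edgeR adjusted p = 0.000157). The difference between these, the interaction, was -0.32 (-0.69 to 0.05) and was not called (edgeR adjusted p = 0.476). KO against WT in EpiLCs was -0.36 ± 0.121 (-0.63 to -0.10), which just missed the threshold in edgeR (adjusted p = 0.0602) and passed it in DESeq2 (adjusted p = 0.0454). In naive cells it was -0.04 (-0.30 to 0.22).

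The genes of cobalamin handling and folate input moved in mixed directions at the transition. Of 9 genes of cobalamin handling, 3 rose and 1 fell in WT, and 3 rose and 3 fell in KO. This list also holds Mut, Mmaa and Mmab, which belong to the methylmalonyl-CoA mutase branch and do not feed methionine synthase. Tcn2, which encodes the plasma carrier of cobalamin, fell by 1.05 on the log2 scale in WT and by 1.06 in KO, and Mmadhc, which encodes a protein that directs cobalamin to its enzymes, rose by 0.93 in WT and 0.79 in KO. Of 6 genes of folate input, 2 rose in WT, and 2 rose and 1 fell in KO; Slc19a1, which encodes the reduced folate carrier, rose by 1.09 ± 0.167 in WT and 0.98 ± 0.168 in KO.

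Bhmt encodes betaine-homocysteine methyltransferase, which remethylates homocysteine with betaine and is best known from liver and kidney (ENSMUSG00000074768.6, chromosome 13, 93616675 to 93637961, minus strand). Its promoter is printed because Bhmt changed most of the 7 genes, and that of the neighbouring Bhmt2, which encodes a related methyltransferase that uses S-methylmethionine, because both genes fell together. Both are the 250 bases before the RefSeq start on GRCm38.p6, 5′ to 3′ along the minus strand, with matches to TCAAGGTCA, an element bound by the naive pluripotency factor ESRRB, and to its core AAGGTCA in capitals. The core is contained in the longer element, so a match to the longer one is also a match to the shorter:
Bhmt, chr13:93637759-93638008: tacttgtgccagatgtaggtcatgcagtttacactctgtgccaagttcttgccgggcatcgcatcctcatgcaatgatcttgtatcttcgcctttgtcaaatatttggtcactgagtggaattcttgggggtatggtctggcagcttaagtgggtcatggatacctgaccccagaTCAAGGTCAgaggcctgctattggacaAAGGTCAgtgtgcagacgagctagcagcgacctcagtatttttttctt
Bhmt2, chr13:93674303-93674552: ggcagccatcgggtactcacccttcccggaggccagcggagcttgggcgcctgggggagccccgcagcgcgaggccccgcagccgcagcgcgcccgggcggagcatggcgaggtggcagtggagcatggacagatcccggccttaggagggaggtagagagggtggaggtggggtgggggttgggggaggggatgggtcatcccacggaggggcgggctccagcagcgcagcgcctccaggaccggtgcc

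The Bhmt window holds 1 match to TCAAGGTCA, starting at base 176, and 2 matches to AAGGTCA. The span of Bhmt in the count table runs to 93637961, beyond the RefSeq start. The marked stretches therefore lie before the RefSeq start but inside the counted span. Over the 32851 RefSeq promoter windows of 300 bases, which run on past the start and were searched on both strands, 0.423% hold the longer element and 4.72% the core. None of the other 6 members, nor Bhmt2, holds either. CCAAT, the letters of a common promoter box, was found in the windows of all 7 members and in 37.4% of all windows. The E-box CACGTG (7.15% of all windows) and TGATGNAAN, the letters of an ATF4 element (3.95%), were found in none of the 7. The Bhmt window has 8 CpG dinucleotides and that of Mat2a 34, beside a median of 7 over all windows. The motifs were picked by hand with the fold changes known, and the core, CCAAT and the spelling of the ATF4 element with the promoter sequences in view, so the matches are descriptions.

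Bhmt was measured at 77.3, 51.2 and 95.6 CPM in naive WT and at 19.9, 14.3 and 47.1 CPM in naive KO. In EpiLCs it fell to 0.296, 1.01 and 0.366 CPM in WT, which rest on 11, 27 and 11 counts, and to 0.344, 0.0529 and 0.394 CPM in KO, which rest on 15, 2 and 14 counts. The log2 fold change from naive to EpiLC was -7.12 ± 0.619 in WT (edgeR adjusted p = 1.46e-06) and -6.66 ± 0.636 in KO (edgeR adjusted p = 2.74e-06), 134 and 103 times by the ratio of means.

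In naive cells the KO libraries all lay below the WT libraries, though replicate 3 of KO, at 47.1 CPM, came close to replicate 2 of WT, at 51.2 CPM. KO against WT was -1.46 ± 0.446 (-2.43 to -0.50, unadjusted p = 0.00616 in edgeR), which missed the threshold after adjustment (edgeR adjusted p = 0.0588; DESeq2 adjusted p = 0.141). It passed without naive KO replicate 3 (-2.16, adjusted p = 0.0087), with the replicate number as a block (-1.57, adjusted p = 0.0321), and with no filter on low counts (-1.46, adjusted p = 1.76e-05). Replicate 3 was the KO library nearest to WT, so leaving it out necessarily widened the difference. The block pairs KO and WT clones by number, which neither the labels nor the correlations given under processing show. Over the fits that left out a single naive library the KO against WT difference ran from -2.16 to -1.18, with edgeR adjusted p from 0.0087 to 0.212. In EpiLCs, at a handful of counts, KO against WT had an interval of -2.70 to 0.70 (edgeR adjusted p = 0.426), and the interaction was 0.46 (-1.56 to 2.48). Bhmt has a near-identical copy in Gm5096, with 99.4% of bases shared over 1869 of 2490, but that gene held 37 counts over all libraries.

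Bhmt2 starts 17758 bp beyond Bhmt on chromosome 13 (93655720 to 93674302), and Dmgdh, which encodes the dehydrogenase of the dimethylglycine that BHMT makes from betaine, lies 130 bp beyond Bhmt2 on the other strand. Bhmt2 fell from 64.4 ± 9.27 to 0.51 ± 0.305 CPM in WT (log2 -6.97 ± 0.426) and from 30.1 ± 10.7 to 0.256 ± 0.145 CPM in KO (log2 -6.89 ± 0.442). Dmgdh fell from 173 ± 35.3 to 2.17 ± 1.59 CPM in WT (log2 -6.36 ± 0.518) and from 78.3 ± 33.5 to 1.17 ± 0.669 CPM in KO (log2 -6.08 ± 0.522). The 3 neighbours therefore shared both the naive expression and the near loss in EpiLCs. All 3 also stood lower in naive KO without overlap: Bhmt2 by -1.10 ± 0.305, which was called (edgeR adjusted p = 0.0418), and Dmgdh by -1.15 ± 0.398, which was not (edgeR adjusted p = 0.0946). The Bhmt2 call ended in 4 of the 6 fits that left out a single naive library. Of the endoderm markers in the same naive libraries, Lama1 was higher in KO without being called (0.73 ± 0.326, edgeR adjusted p = 0.198) and Gata4 lower without being called (-1.21 ± 0.484, edgeR adjusted p = 0.146); their part in these differences was not tested.

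**Figure D3:**
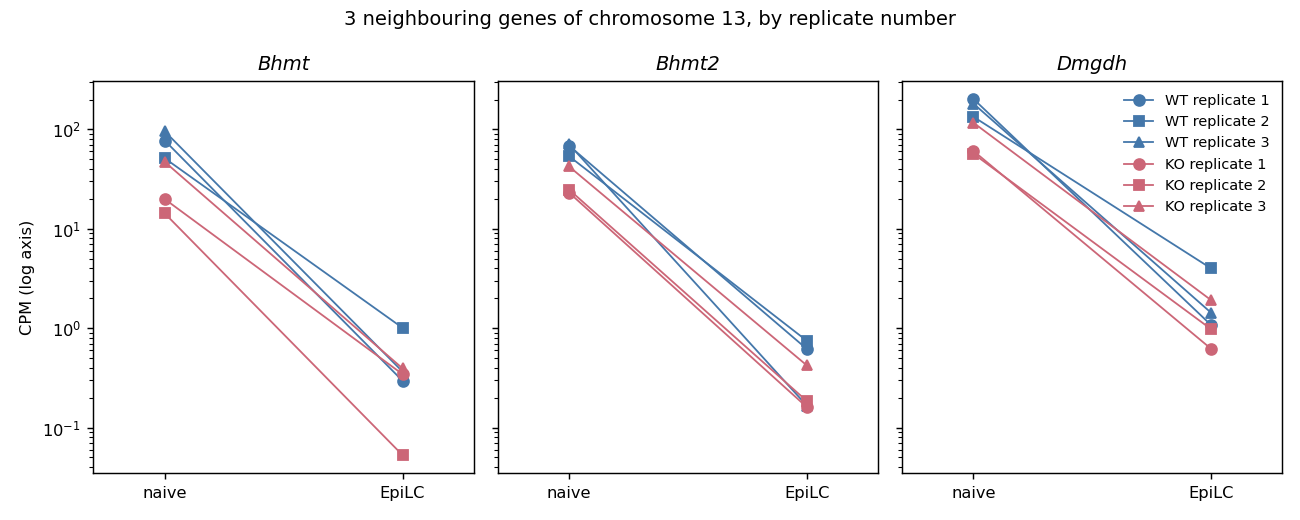
CPM (log axis) of Bhmt, Bhmt2 and Dmgdh, neighbours on chromosome 13, in naive cells and EpiLCs, with a line joining libraries of the same genotype and replicate number. All 6 lines fall steeply for each gene, and the naive KO points lie below the naive WT points in each panel.

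The list of betaine and choline supply held 7 genes, of which 4 were tested. In WT, 2 of them fell and 1 rose, and in KO 3 fell. Dmgdh is among those that fell in each genotype, and it acts on the product of BHMT and not in the supply of betaine. Chdh, the listed choline dehydrogenase, was too low to be tested. Its summed counts were 8 in naive WT, 1 in naive KO, 10 in EpiLC WT and 18 in EpiLC KO. The counts of this list therefore do not measure the making of betaine. Slc44a1, which encodes a choline transporter, fell by 1.60 on the log2 scale in WT and by 1.65 in KO. Slc44a2, which encodes a related choline transporter, stood at 85.4 ± 1.74 CPM in naive WT and 119 ± 10.8 CPM in naive KO (log2 0.48 ± 0.0927, edgeR adjusted p = 0.00794). It stood at 80.1 ± 1.46 CPM in EpiLC WT and 64.7 ± 4.99 CPM in EpiLC KO (log2 -0.31 ± 0.0928, edgeR adjusted p = 0.0424). The EpiLC call ended in all 6 fits that left out a single EpiLC library (adjusted p from 0.0574 to 0.14), and in 10 of 12 alternatives in all, while the naive call held in all 12.

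Mtap encodes the phosphorylase that begins methionine salvage (ENSMUSG00000062937.7, chromosome 4, 89137122 to 89181081, plus strand). It was measured at 99.4, 87.6 and 99.7 CPM in naive WT, 88.7, 93.6 and 74.2 CPM in naive KO, 133, 122 and 149 CPM in EpiLC WT, and 124, 115 and 126 CPM in EpiLC KO. Every EpiLC library was above every naive library, and the genotypes overlapped in both conditions. The log2 fold change was 0.50 ± 0.11 in WT (edgeR adjusted p = 0.00224) and 0.51 ± 0.11 in KO (edgeR adjusted p = 0.00163). KO against WT was -0.16 in naive cells (-0.40 to 0.08) and -0.14 in EpiLCs (-0.38 to 0.09).

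The later steps of salvage did not move with Mtap. Of the 5 other salvage genes, 2 fell at the transition in each genotype. Apip, the dehydratase of the route, fell by 0.92 on the log2 scale in WT and by 0.98 in KO, and Enoph1, the enolase-phosphatase, fell by 0.86 in both. The polyamine steps that consume SAM and release methylthioadenosine had 3 genes that rose and 2 that fell of 6 in each genotype. Srm, which encodes spermidine synthase, rose by 1.12 ± 0.151 in WT and 1.06 ± 0.151 in KO, and Amd1, whose product decarboxylates SAM, rose by 0.34 ± 0.0823 and 0.46 ± 0.0823.

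**Figure D4:**
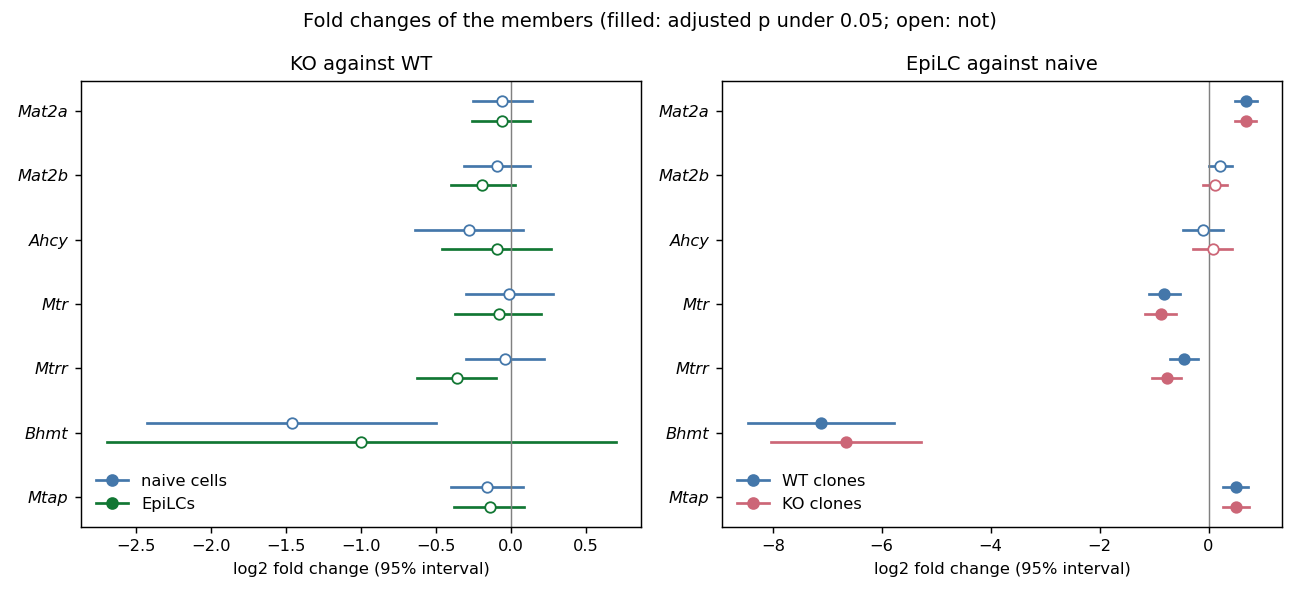
Log2 fold changes with 95% intervals from the edgeR fit for KO against WT (left) and EpiLC against naive (right), filled where the adjusted p was under 0.05. No point on the left is filled, and on the right Mat2a, Mtap, Mtr, Mtrr and Bhmt are filled in both genotypes, with Bhmt near -7.

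Between genotypes, none of the 7 genes was called by edgeR in either condition. In naive cells, where 9.23% of all genes were called, 1 of the 7 (Bhmt) had an unadjusted p under 0.05, 1 did not overlap between the groups (also Bhmt), and DESeq2 called none. In EpiLCs, where 15.1% of all genes were called, 1 of the 7 (Mtrr) had an unadjusted p under 0.05 in edgeR. DESeq2 called Mtrr, and 2 (Mtr and Mtrr) did not overlap. The share of all genes without overlap is not given here, so the counts of non-overlap are descriptions. The median log2 difference was -0.09 in naive cells and -0.14 in EpiLCs, beside 0.00 over all genes in both. The transition itself was not found to differ between genotypes for any of the 7: 0.381% of all genes passed the interaction test, and of the members edgeR and DESeq2 called 0, with 0 at an unadjusted p under 0.05. The intervals of the interaction were narrow for Mat2a (-0.29 to 0.27) and wide for Bhmt (-1.56 to 2.48).

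Among the genes around the cycle, several were called in KO EpiLCs. Of 114 tested genes in 14 pathway and methyltransferase lists, which leave out the 7 members, 3 rose and 22 fell in KO EpiLCs. Over all genes, 7.22% were higher and 7.86% lower there. In naive KO cells 2 of the 114 rose and 6 fell, beside 4.27% and 4.95% over all genes. The median log2 difference of the 114 was -0.10 in EpiLCs and -0.06 in naive cells. The lists were chosen with earlier results of these data known, and the counts are descriptions. In EpiLCs the endoderm sum was 60.3 to 91.3 CPM in KO against 11.9 to 23.7 CPM in WT, and 7 of the 9 tested endoderm markers were called higher in KO; their part in these counts was not tested.

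Among enzymes that meet the cycle, Gnmt, which encodes the glycine methyltransferase that consumes spare SAM, reached 5.69 ± 1.02 CPM in EpiLC WT and 1.44 ± 0.686 CPM in EpiLC KO (log2 -1.97 ± 0.415, edgeR adjusted p = 0.00831). In naive cells it was near 0.6 CPM in both genotypes, at 0.58 ± 0.221 and 0.667 ± 0.278. Of the folate genes, Slc19a1 and Mthfd1, a folate-interconverting enzyme, were lower in KO EpiLCs, by -0.60 ± 0.165 and -0.26 ± 0.0724. Cth of transsulfuration, which takes homocysteine out of the cycle towards cysteine, was lower there by -1.08 ± 0.289.

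In methionine salvage, Adi1, the dioxygenase of the route, was lower in KO in both conditions, at 102 ± 7.81 against 148 ± 15.2 CPM in naive cells (log2 -0.54 ± 0.142) and at 83.1 ± 17.2 against 117 ± 13.3 CPM in EpiLCs (log2 -0.49 ± 0.142). Mri1, the isomerase that follows MTAP, was lower in KO EpiLCs (-0.67 ± 0.16, edgeR adjusted p = 0.0156). Il4i1 was also called there (-3.31 ± 0.773), but it was at most 0.523 CPM in any EpiLC library and its exons overlap those of Nup62 and of other genes. In all, 3 of the 5 salvage genes beyond Mtap were lower in KO EpiLCs, beside 7.86% of all genes.

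Of the 7 transport genes, 6 rose at the transition in WT and 4 in KO, and 3 were lower in KO EpiLCs. Over all genes, 26.4% rose in WT, 27.1% rose in KO and 7.86% were lower in KO EpiLCs. Slc7a5, the light chain of the transporter for methionine and other large neutral amino acids, stood at 354 ± 117 CPM in naive WT, 335 ± 104 in naive KO, 612 ± 70.1 in EpiLC WT and 332 ± 27.6 in EpiLC KO. Slc3a2, its heavy chain, stood at 311 ± 90.8, 291 ± 82, 533 ± 60.6 and 292 ± 23.5 CPM in the same order. Both rose in WT (0.79 ± 0.238 and 0.78 ± 0.212), and the values in KO were -0.01 ± 0.237 and 0.00 ± 0.211. The interactions, -0.80 ± 0.336 and -0.77 ± 0.298, were not called (edgeR adjusted p = 0.349 and 0.308). This main fit does not pair libraries by clone, and it did not show the transition to differ between genotypes. Values with the clone block are not given here for Slc7a5 and Slc3a2. KO against WT in EpiLCs was -0.88 ± 0.239 for Slc7a5 (edgeR adjusted p = 0.0276) and -0.87 ± 0.212 for Slc3a2 (edgeR adjusted p = 0.0177). Slc38a2, a sodium-coupled transporter of small neutral amino acids that include methionine, stood at 1032 ± 30.0 CPM in EpiLC WT and 770.2 ± 101 CPM in EpiLC KO (log2 -0.42 ± 0.123).

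In polyamine catabolism, Smox, which encodes spermine oxidase, stood at 51.0 ± 6.46 CPM in naive WT and 24.1 ± 5.87 CPM in naive KO (log2 -1.08 ± 0.18, edgeR adjusted p = 0.00331). Sat1, which encodes the acetyltransferase for spermidine and spermine, was higher in naive KO at 117 ± 14 CPM against 77.8 ± 9.28 CPM (log2 0.58 ± 0.155).

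Among the users of SAM, 2 of 63 tested methyltransferase genes fell in naive KO, beside 4.95% of all genes. In KO EpiLCs 2 rose and 10 fell, beside 7.22% higher and 7.86% lower over all genes. Ehmt2, which encodes the histone H3 lysine 9 methyltransferase G9a, had the lowest adjusted p: 70.5 ± 13.9 CPM in naive KO against 193 ± 21.2 in naive WT (log2 -1.45 ± 0.145, edgeR adjusted p = 0.000186), and 50.4 ± 4.55 CPM in EpiLC KO against 174 ± 18.8 in EpiLC WT (log2 -1.79 ± 0.147, edgeR adjusted p = 4.23e-05). Every KO library was below every WT library in both conditions. Carm1, which encodes an arginine methyltransferase, was lower in KO at both stages, by -0.49 ± 0.133 and -0.50 ± 0.133, and its exons overlap those of Yipf2 on the other strand. Icmt, the methyltransferase of prenylated proteins, was higher in KO EpiLCs at 73.4 ± 4.24 against 46.4 ± 6.75 CPM (log2 0.66 ± 0.115). Its exons overlap those of a neighbour on the other strand, and the count header shows no strand option. The 3 DNA methyltransferase genes Dnmt3a, Dnmt3b and Dnmt3l rose at the transition in both genotypes, Dnmt3a by 6.29 ± 0.219 in WT and 5.70 ± 0.213 in KO.

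**Figure D5:**
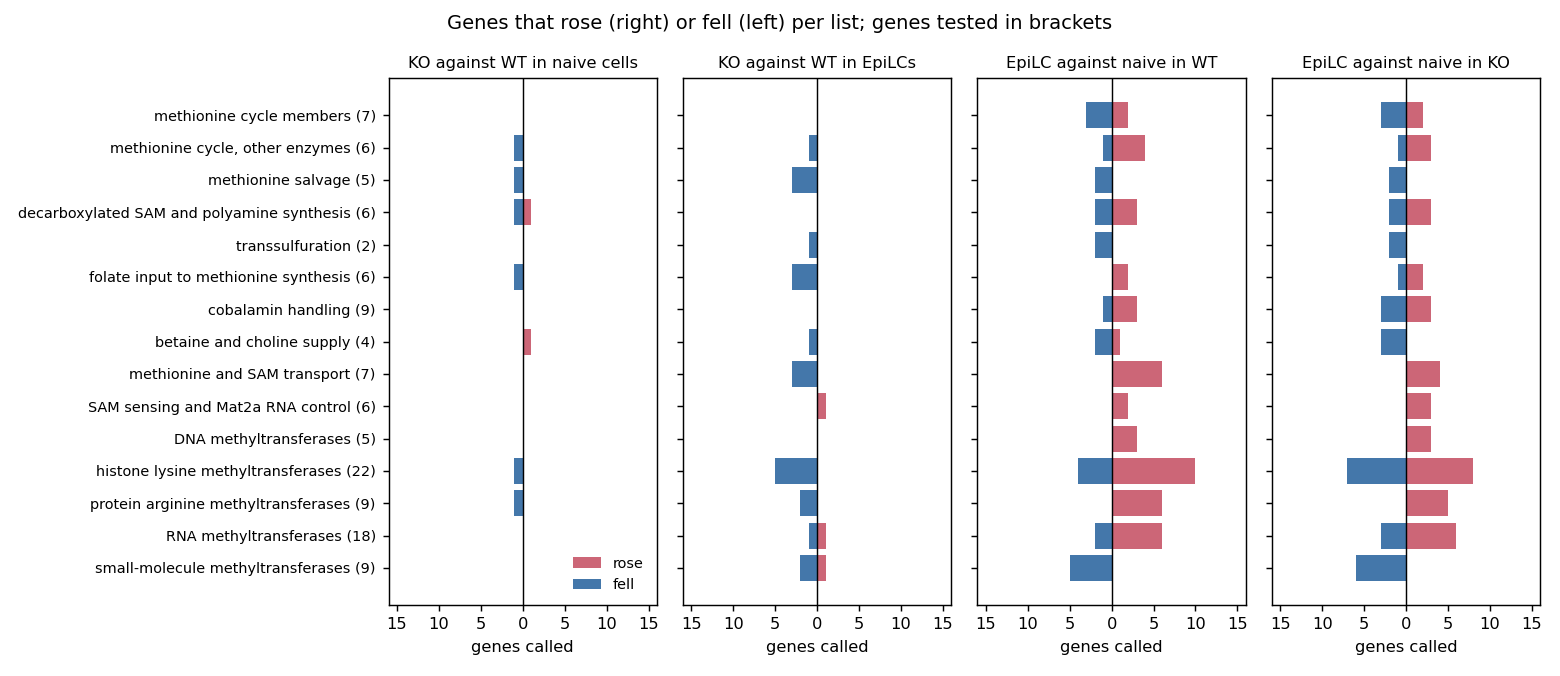
Number of genes called higher (right, red) or lower (left, blue) in each list, with the number tested in brackets, for KO against WT in each condition and EpiLC against naive in each genotype. The 7 methionine cycle genes have no bar in the KO panels. Of the 22 histone lysine methyltransferases, 5 were lower in KO EpiLCs, beside 7.86% of all genes.

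Of the 35 calls between genotypes or in the interaction in these lists, 10 held in every alternative tried and 25 ended in at least 1 fit that left out a single library. Ehmt2 in both conditions, Smox and Slc44a2 in naive cells, and Gnmt, Il4i1 and Icmt in EpiLCs were called in every such fit, whereas Adi1, Slc7a5, Slc3a2, Slc38a2, Slc19a1, Mthfd1, Cth, Mri1, Sat1, Carm1 and, in EpiLCs, Slc44a2 were not.

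The genes whose level followed each member most closely over the 12 libraries are given as a description, since all libraries share the split between naive cells and EpiLCs. The closest to Mat2a were Icosl (Pearson r = 0.983), G3bp2 (0.982) and Slc40a1 (0.981), and to Mtap Ctps (0.967), Mrgbp (0.965) and Pgk1 (0.965). The closest to Mtr were Tbc1d10b and Gramd4 (both 0.981) and Fbrs (0.978), and to Bhmt Phactr2 (0.992), Tmem64 (0.989) and Slc30a10 (0.988). Mtrr was followed by Bcap31 (0.982), by Cth (0.979), the transsulfuration gene above, and by Psap (0.979). The values were lower for the members that were not called, with at most 0.886 for Mat2b (Skp1a) and 0.874 for Ahcy (Mogs).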

How the data were processed

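Polyadenylated RNA from 12 cultures (TruSeq Stranded mRNA libraries, per the labels' protocols) was sequenced. The deposited values are raw counts of reads for each gene, which the authors did not normalise and made with featureCounts 2.0.1 on GENCODE vM25, per the file headers; the submitters' processing notes also name fastp, FastQC, STAR, DESeq2 and GRCm38/mm10. The header shows no strand, multi-mapping or overlap option, so under the tool's defaults strand was ignored and reads shared by near-identical or overlapping genes were not counted. The deposited length column (bp of summed exons, per the file headers) was used for levels per kb only.

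TMM scaling used edgeR 4.0.16 under R 4.3.3, and genes were filtered with filterByExpr (minimum count 10, total 15). All 12 libraries entered 1 quasi-likelihood model (8 residual degrees of freedom), 5 contrasts and Benjamini-Hochberg adjustment over 18134 genes. A standard error is the log2 fold change over the square root of F. The fit was tested on simulated data. DESeq2 1.42.0, other scalings, no filter, replicate blocks, fits of 1 condition and leaving out each library were alternatives. Libraries are biological replicates per the labels; total counts limit precision at low counts only.

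The labels do not say that a number marks the same clone in both conditions, so this was read from correlations of deviations from group means. Within a genotype, the 6 pairs of naive and EpiLC libraries of the same number gave 0.145 to 0.264. Those of unlike number gave -0.248 to 0.0483. KO and WT libraries of the same number in a condition gave -0.266 to 0.00374, and those of unlike number reached 0.287. The members and lists were chosen with earlier results of these data known. Named genes were the 7 members, list genes called between genotypes or in the interaction (the 4 with the smallest adjusted p in longer lists), any gene of the pathway lists, and the 3 genes most correlated with each member among those with a mean of at least 5 CPM. Some that this rule names are given as counts only. Genes were named by Ensembl ID, 55141 of 55487 matching.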

Additional observations from a re-analysis of the deposited data

Results flagged for a closer look

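For 2 listed genes the difference between KO and WT itself differed between naive cells and EpiLCs by the interaction term of the edgeR fit. For Smox the interaction was 1.54 ± 0.257 on the log2 scale (adjusted p = 0.0345): KO against WT was -1.08 ± 0.18 in naive cells and 0.46 ± 0.183 in EpiLCs, where it was not called (adjusted p = 0.109). It ran from 1.40 to 1.71 when 1 library was left out, and was called in 4 of 12 such fits. For Slc44a2 the interaction was -0.79 ± 0.131 (adjusted p = 0.0345), with 0.48 ± 0.0927 in naive cells and -0.31 ± 0.0928 in EpiLCs. It ran from -0.82 to -0.68 when 1 library was left out, and was called in 2 of 12 such fits. Both calls also ended with the replicate number as a block (Smox 1.54 and Slc44a2 -0.79, adjusted p = 0.0502 for each) and held with the clone number as a block within genotype (1.57, adjusted p = 0.0303, and -0.78, adjusted p = 0.019). No group had the 4 libraries that a search for single outlying libraries needs.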

How the results depend on the processing

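The 5 members called at the transition in WT and in KO were called under every alternative tried. With no filter on low counts or with the replicate block, 1 member was called between KO and WT in naive cells (Bhmt, -1.57, adjusted p = 0.0321 with the block); with DESeq2, 1 member (Mtrr) was called in EpiLCs. Blocking on the clone within genotype, as read from the replicate numbers, called Mat2b at the WT transition (0.22, edgeR adjusted p = 0.0321). It changed no other member's call. The interaction called 69 genes in all, 564 with no filter, 507 with DESeq2, 30 with the replicate block and 228 with the clone block.

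Leaving out 1 library gave 0 to 1 called members in naive cells (1 without naive KO replicate 3), 678 to 1744 called genes in naive cells (fewest without naive KO replicate 1, then naive WT replicates 3 and 1), 1375 to 3117 in EpiLCs (fewest without EpiLC KO replicate 1, then EpiLC WT replicate 3 and EpiLC KO replicate 3) and 3 to 149 for the interaction, where all libraries but naive WT replicate 2 moved the count by over 1.5 times. Values near 0 changed sign: the interaction of Mat2a was 0.01 with RLE scaling and DESeq2, 0.04 with upper-quartile scaling and 0.00 with the clone block, and that of Mtap -0.01 with no filter. When 1 library was left out, the interaction ran from -0.07 to 0.08 for Mat2a, -0.18 to 0.02 for Mat2b, -0.18 to 0.10 for Mtr and -0.05 to 0.13 for Mtap. KO against WT ran from -0.17 to 0.11 for Mtr and -0.15 to 0.08 for Mtrr in naive cells, and from -0.13 to 0.03 for Mat2a and -0.20 to 0.04 for Ahcy in EpiLCs. Ahcy at the WT transition ran from -0.30 to 0.00. The cause was not tested. Upper-quartile scaling moved the median of all genes by 0.13 at the KO transition, and by 0.09 in WT, and Mat2b was then called in KO (0.25, adjusted p = 0.0429) and in WT (0.31, adjusted p = 0.0183), as it was in WT without EpiLC WT replicate 2 (0.29, adjusted p = 0.0252). Depth limits Bhmt in EpiLCs (2 to 27 counts per library).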
